A study of Homo sapiens with 16 samples.

Results

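RNA bound to poly(A)-binding protein (PABP) was compared with total RNA in U251 cells, a human glioblastoma line, that had received a control miRNA mimic and no miR-137. The 4 libraries were chosen by their labels: RIPSeq controls 1 and 2, prepared from RNA recovered with PABP, and RNASeq controls 1 and 2, prepared from total RNA, out of 16 libraries in the series. All 4 carried the control mimic, given at 25 nM, and the study's methods give 48 hours as the time of harvest of transfected cells. For RIPSeq, cells were opened in polysomal lysis buffer, a mixture of PABP antibodies on protein A beads collected the complexes and Proteinase K released the RNA. For RNASeq, RNA was taken with TRIzol. Both kinds of RNA were depleted of ribosomal RNA and primed with random hexamers, so library preparation itself did not select for a tail. The labels do not say whether libraries of a kind came from separate cultures, or whether RIPSeq and RNASeq used the same dishes. The p-values therefore measure the spread between these libraries only, and a difference between dishes cannot be told apart from association with PABP. A precipitation without PABP antibody was not analysed here.

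PABP coats the poly(A) tail at the 3′ end of nearly every mRNA, where it joins the cap-binding complex through eIF4G and limits access of deadenylases. The mRNAs of replication-dependent histones end in a stem-loop in place of a tail, and snoRNAs, the RNase P and RNase MRP RNAs, vault RNAs and the minor spliceosomal RNAs also lack a stable tail. Messenger RNAs for ribosomal proteins and elongation factors begin with a 5′ terminal oligopyrimidine (TOP) tract, which ties their translation to growth signals. PABPC1, the main cytoplasmic PABP, is itself encoded by a TOP mRNA and binds an A-rich stretch in the 5′ leader of its own message.

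The TOP tract is shown here for 5 genes of the class, 4 of them with levels given further down, as the first 25 transcribed bases of their RefSeq start sites in build GRCh38.p14. Capitals mark the unbroken pyrimidine run that begins with C at the first base.
RPS6 (chr9:19380212-19380236, minus strand): CTCTTTTCCgtggcgcctcggaggc
RPLP2 (chr11:809967-809991, plus strand): CCTTTTCCTCCCTgtcgccaccgag
EEF2 (chr19:3985439-3985463, minus strand): CTCTTCCgccgtcgtcgccgccatc
EEF1A1 (chr6:73521008-73521032, minus strand): CTTTTTCgcaacgggtttgccgcca
TPT1 (chr13:45341159-45341183, minus strand): CTTTTCCgcccgctcccccctcccc
The run was 9 bases in RPS6, 13 in RPLP2 and 7 in each of the other genes shown.

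The RNASeq controls held 16886287 and 18224061 counted reads, and the RIPSeq controls 22359794 and 30731476. Reads fell on 16332 and 16568 genes in total RNA and on 19413 and 18540 genes in PABP-bound RNA, of 20314 genes counted. The 10 most abundant genes took 5.18% and 5.43% of reads in RNASeq and 8.06% and 6.84% in RIPSeq. Levels are counts per 1000000 reads (CPM) on the effective library size and include no correction for gene length. Of the 13242 genes with enough reads to test, 12078 passed the filter on low counts in both kinds of RNA, 514 only through total RNA and 430 only through PABP-bound RNA. The filter asked for 0.493 CPM or more in any 2 libraries, and the rest passed with a library of each kind. A gene that passed through a single kind was under that limit in a library of the other kind, or in both. Counts for such genes therefore describe the filter as well as the RNA. The libraries are bulk, so fewer cells expressing a gene and less RNA of it per cell cannot be told apart.

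A gene was called where the edgeR quasi-likelihood test gave an adjusted p under 0.05. By this rule 1042 genes were higher in PABP-bound RNA (7.87% of those tested) and 813 were lower (6.14%). At an unadjusted p under 0.05, 2615 of the 13242 genes were higher and 2267 lower, and DESeq2 called 1945 and 1670. The median log2 ratio of PABP-bound over total RNA across all tested genes was -0.01, with an interquartile range of -0.72 to 0.75. Among the 12078 genes that passed the filter in both kinds of RNA, 954 were higher (7.9%) and 664 lower (5.5%). The counts moved with the library left out. Without RNASeq control 1 there were 87 higher and 176 lower genes, and without RNASeq control 2 there were 41 and 186. Without RIPSeq control 1 there were 3695 and 3564, and without RIPSeq control 2 there were 5709 and 5459. The lone library of a kind was then assumed to vary like the pair that remained. In the order given, 15224, 15273, 13220 and 14711 genes were tested in these fits. List counts given below with a library left out are to be read beside the counts over all genes in the same fit. A list near the share of all genes does not stand out by such a count.

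The RIPSeq controls differed from each other more than the RNASeq controls did. Over 12200 genes, the median absolute log2 ratio between the RIPSeq controls was 0.645, against 0.144 between the RNASeq controls. Over all 13242 genes tested, 2316 were at least 2-fold higher in the second RIPSeq control and 1551 at least 2-fold lower. Between the RNASeq controls the counts were 126 and 279. Set against the mean of the same RNASeq controls, the interquartile range of the log2 ratio was 2.089 in RIPSeq control 1 and 1.107 in RIPSeq control 2. The ratio lay farther from 0 in RIPSeq control 1 for 76.2% of genes.

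**Figure D1:**
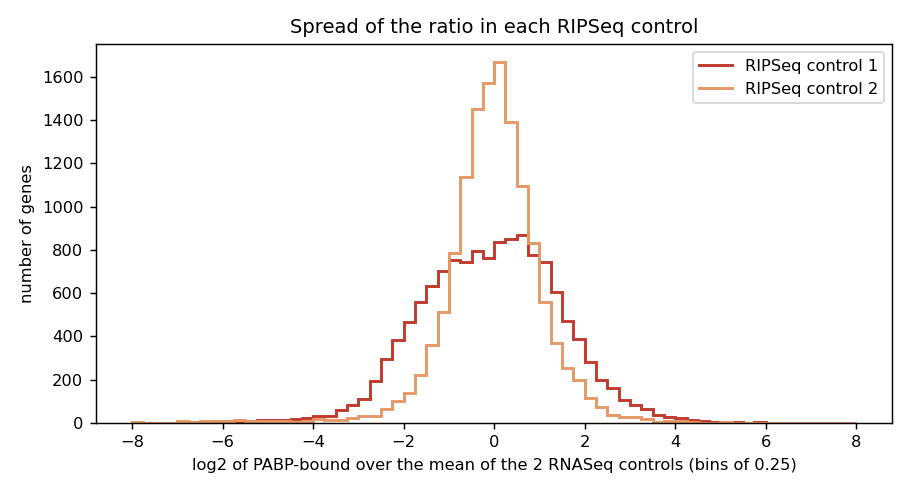
Number of genes (y axis) by log2 of PABP-bound over the mean of the 2 RNASeq controls (x axis, bins of 0.25), drawn for each RIPSeq control. The line of RIPSeq control 1 is lower and wider, with an interquartile range of 2.089 log2 units against 1.107 in RIPSeq control 2.

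Each RIPSeq control was therefore also read alone, by whether a gene was at least 2-fold from both RNASeq controls. RIPSeq control 1 alone gave 2771 higher genes (20.9%) and 3433 lower genes (25.9%). RIPSeq control 2 alone gave 1378 higher genes (10.4%) and 1427 lower genes (10.8%). In both, that is in all 4 pairs of a RIPSeq with an RNASeq control, 1193 genes were higher (9.01%) and 1174 lower (8.87%). These were 43.1% and 34.2% of the genes of RIPSeq control 1 and 86.6% and 82.3% of the genes of RIPSeq control 2. Only 1 gene went opposite ways. Both readings share the RNASeq controls, so this overlap is a description. Of the genes called by edgeR, 1000 of the higher (96%) and 807 of the lower (99.3%) were also 2-fold in all 4 pairs.

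Among genes with at least 500 reads in the higher library, the one with the widest gap between the RIPSeq controls in the direction of the first was RPPH1, described with the small RNAs, followed in the same selection by ATN1, CCDC107, NPDC1 and RPL28. ATN1, which encodes the transcriptional corepressor atrophin-1, stood at 46.3 and 12.7 CPM in total RNA, 237 in RIPSeq control 1 and 40.6 in RIPSeq control 2. RPL28, a large-subunit ribosomal protein, stood at 55.0 and 55.4, then 391 and 76.0. In the other direction, DEPDC1, a gene of dividing cells, stood at 215 and 227 CPM in total RNA, 31.6 in RIPSeq control 1 and 204 in RIPSeq control 2. TMTC3, an O-mannosyltransferase of the endoplasmic reticulum (ER), stood at 272 and 277, then 25.9 and 174. For DEPDC1 the second RIPSeq control lay close to total RNA and the first did not, for TMTC3 both lay below total RNA and the first lay lower, and none of ATN1, RPL28, DEPDC1 and TMTC3 passed the edgeR test. Their adjusted p-values were 0.134, 0.0924, 0.419 and 0.223. Without RIPSeq control 2 all of them passed, at 7.81e-05, 3.09e-08, 6.59e-08 and 3.09e-08, and without RIPSeq control 1 RPL28 and TMTC3 passed, at 0.00684 and 0.000557.

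The replication-dependent histone mRNAs were depleted from PABP-bound RNA. Of 65 such genes counted, 55 were tested and 55 were called lower, against 6.14% of all genes, with a median log2 ratio of -5.12 against -0.01 over all genes. In RIPSeq control 1 the median was -4.78 and in RIPSeq control 2 it was -5.51. The range ran from -6.70 for HIST1H4I, an H4 gene, to -2.72 for HIST3H2A, an H2A gene outside the main cluster. The filter was passed in both kinds of RNA by 45 genes, all lower with a median of -5.20, and by the other 10 through total RNA only. The 10 genes not tested held 43 reads in total RNA and 17 in PABP-bound RNA. Summed over the list, the histones took 1.41% and 1.29% of reads in the RNASeq controls, but 0.0428% and 0.0284% in the RIPSeq controls. Without RNASeq control 1, 52 of 55 were lower, and without RNASeq control 2, 53 of 55.

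HIST1H1E and HIST1H1B, which encode linker histones that pack nucleosomes together, were the most abundant of them. HIST1H1E (chromosome 6, 26264538 to 26265322 in hg18) stood at 2376 and 2338 CPM in total RNA and at 86.3 and 80.3 in PABP-bound RNA. Its log2 ratio was -4.82 ± 0.30 (SE, n = 2 libraries of each kind, as for all edgeR ratios; adjusted p = 0.00387). HIST1H1B stood at 2061 and 2035 CPM in total RNA and at 35.9 and 38.7 in PABP-bound RNA, a log2 ratio of -5.78 ± 0.32 (adjusted p = 0.00387). In both genes the RIPSeq controls lay close together and far under the RNASeq controls. HIST1H4C, an H4 gene, stood at 224 and 201 CPM in total RNA and at 18.1 and 8.04 in PABP-bound RNA, a log2 ratio of -4.02 ± 0.50 (adjusted p = 0.0159). HIST1H2AG, an H2A gene, stood at 682 and 622, then 9.67 and 7.41, a log2 ratio of -6.25 ± 0.39 (adjusted p = 0.00387). The HIST1 genes are near copies of one another and reads can be shared among them, so single genes are less certain than the family.

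Each core and linker family was low. The median log2 ratio was -4.61 over 6 H1 genes, -5.19 over 12 H2A genes, -5.06 over 18 H2B genes, -5.77 over 11 H3 genes and -4.81 over 8 H4 genes, and each tested gene was called lower. The replication-independent histones, whose mRNAs carry a tail, were at a median of 0.22 over 11 tested genes. In RIPSeq control 1 their median was 0.53 and in RIPSeq control 2 it was 0.06. H2AFZ, the H2A.Z variant, stood at 549 and 678 CPM in total RNA and at 683 and 550 in PABP-bound RNA. H3F3B, the H3.3 variant, stood at 421 and 459, then 361 and 429. In both the levels of the 2 kinds of RNA overlapped, with log2 ratios of 0.01 ± 0.30 and -0.16 ± 0.29 (adjusted p = 0.99 and 0.726). H1FX, the H1X linker histone, was the exception, at 43.2 and 37.0 CPM in total RNA against 130 and 91.2, a log2 ratio of 1.46 ± 0.35 (adjusted p = 0.0436). That call was lost without RNASeq control 1 (adjusted p = 0.575) and without RNASeq control 2 (0.659). The list had 1 higher and 2 lower genes without RIPSeq control 1, and 4 and 2 without RIPSeq control 2.

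**Figure D2:**
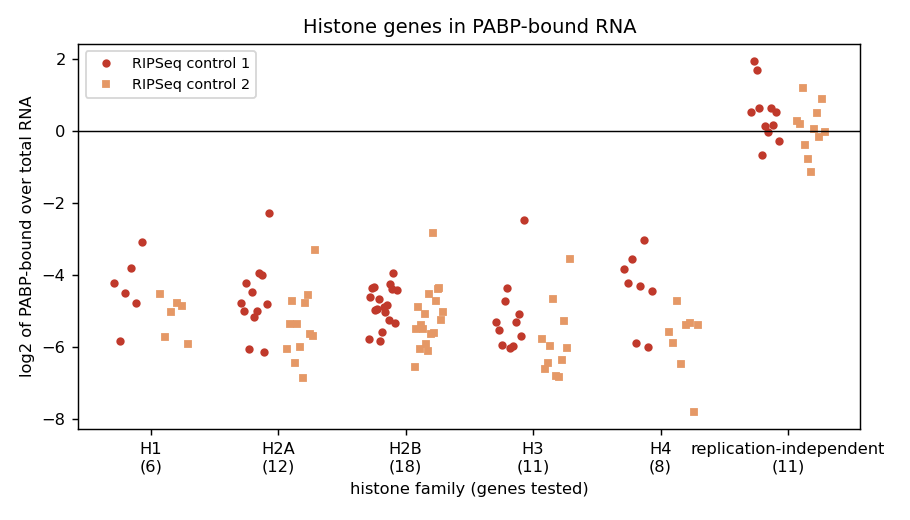
Log2 of PABP-bound over total RNA (y axis) for each tested histone gene, by family (x axis, with the number of genes), with 1 point for each RIPSeq control. The points of the replication-dependent families lie under -2 in both RIPSeq controls, and the replication-independent genes lie around 0, with family medians from -5.77 to -4.61 against 0.22.

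Small nucleolar RNAs (snoRNAs), which guide chemical modification of ribosomal RNA, and their Cajal body counterparts, the scaRNAs, were also low. Of 347 counted, 94 were tested, 64 were called lower and 0 higher, against 6.14% and 7.87% of all genes. At an unadjusted p under 0.05, 83 were lower and 0 higher, and DESeq2 called 71 lower and 0 higher. The median log2 ratio was -3.33, with -3.17 in RIPSeq control 1 and -3.26 in RIPSeq control 2. Most of the list, 78 genes, passed the filter through total RNA only. Of the 14 that passed in both kinds of RNA, 8 were lower, with a median of -1.82. The 253 not tested held 1324 reads in total RNA and 576 in PABP-bound RNA, and 61 of them had no read. Without RNASeq control 1, 30 of 100 tested were lower, and without RNASeq control 2, 33 of 107. The count was 91 of 110 without RIPSeq control 1 and 95 of 112 without RIPSeq control 2. These RNAs sit inside the introns of other genes, and the sources used here do not say how reads over overlapping genes were assigned.

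The box H/ACA snoRNAs, which guide pseudouridylation, were at a median of -3.38, with 37 of 52 called lower. The box C/D snoRNAs, which guide ribose methylation, were at -3.19, with 17 of 28 lower. The scaRNAs were at -3.92, with 10 of 14 lower. Of these, 47 H/ACA, 23 C/D and 8 scaRNAs passed the filter on low counts through total RNA only, so their counts describe the filter as well. Among those that passed in both kinds of RNA, 2 of 5 H/ACA snoRNAs were lower with a median of -1.39, 2 of 4 C/D snoRNAs at -0.76 and 4 of 5 scaRNAs at -3.42. SCARNA10 was the most abundant, at 200 and 212 CPM in total RNA and at 3.67 and 2.42 in PABP-bound RNA. Its log2 ratio was -6.08 ± 0.44 (adjusted p = 0.00387). SNORD17, a box C/D snoRNA, stood at 200 and 179, then 30.5 and 7.69, a log2 ratio of -3.31 ± 0.67 (adjusted p = 0.0328), so the RIPSeq controls were further apart here than for SCARNA10. SNORA48, a box H/ACA snoRNA that lies in EIF4A1, had 562 and 533 reads in total RNA and 9 and 12 in PABP-bound RNA, a log2 ratio of -6.22 ± 0.39. SNORA37 had 33 and 16 reads in total RNA and none in either RIPSeq control, which makes it at least 23.6-fold lower with 3 reads over the group as the limit that a count of 0 allows.

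The other small structural RNAs followed the same direction. All 10 tested of 11 were called lower, with a median of -4.75, and 8 of them passed the filter through total RNA only. The median was -3.97 in RIPSeq control 1 and -5.15 in RIPSeq control 2. Without RNASeq control 1, 6 of 11 were lower, and without RNASeq control 2, 7 of 11. RMRP, the RNA of the RNase MRP enzyme that processes ribosomal RNA, lies on chromosome 9 from 35647750 to 35648014 in hg18. It stood at 7371 and 6842 CPM in total RNA and at 857 and 445 in PABP-bound RNA, a log2 ratio of -3.45 ± 0.37 (adjusted p = 0.011). RPPH1, the RNA of RNase P, which trims the 5′ ends of tRNAs, stood at 1095 and 840, then 53.8 and 6.72. The RIPSeq controls were far apart for RPPH1, with ratios of -4.16 and -7.15 on the log2 scale, and the edgeR ratio was -5.00 ± 0.97 (adjusted p = 0.0311). The list also held the minor spliceosomal RNAs RNU11, RNU12, RNU4ATAC and RNU6ATAC, the telomerase RNA TERC and 3 vault RNAs, and all of them were lower.

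The long noncoding RNAs split. MALAT1, a nuclear speckle RNA whose 3′ end is a triple helix and not a tail, lies on chromosome 11 from 65021809 to 65030513 in hg18. It stood at 1011 and 790 CPM in total RNA and at 98.9 and 76.7 in PABP-bound RNA. Its log2 ratio was -3.36 ± 0.34 (adjusted p = 0.00911), with -3.18 in RIPSeq control 1 and -3.54 in RIPSeq control 2. NEAT1, the paraspeckle RNA, varied within each kind of RNA, at 45.6 and 15.6 CPM in total RNA and 78.1 and 21.3 in PABP-bound RNA. The ranges of NEAT1 overlapped and its log2 ratio was 0.70 ± 0.72 (adjusted p = 0.509), although without RIPSeq control 2 it passed the test (0.00992). PVT1, the noncoding neighbour of MYC, stood at 114 and 126, then 469 and 337, a log2 ratio of 1.75 ± 0.34 (adjusted p = 0.0306), a call lost without RNASeq control 1 (0.476) or 2 (0.437). Of 9 nuclear long noncoding RNAs tested, PVT1 was called higher and MALAT1 and KCNQ1OT1 lower, and the list median was 1.16 in RIPSeq control 1 and -0.40 in RIPSeq control 2, on opposite sides of 0. Without RIPSeq control 2, 5 were higher and 3 lower.

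The noncoding RNAs that host snoRNAs in their introns were read as a list of their own. Of 14 host RNAs, edgeR called 0 in either direction, with 1 higher and 2 lower at an unadjusted p under 0.05 and by DESeq2. Their median was 0.10, with 0.38 in RIPSeq control 1 and -0.33 in RIPSeq control 2. Leaving out RIPSeq control 1 gave 2 higher and 5 lower, and leaving out RIPSeq control 2 gave 6 and 3. GAS5, a TOP host transcript, stood at 74.6 and 86.9 CPM in total RNA and at 143 and 111 in PABP-bound RNA, a log2 ratio of 0.65 ± 0.33 (adjusted p = 0.203). Among 6 microRNA precursor transcripts tested of 461, 2 were called lower and the median was -1.94. Those were MIR21 and MIR630. Of the 6, 4 passed the filter through total RNA only, the 1 that passed in both was not called, and 0 were called without RNASeq control 1 or without RNASeq control 2. Over all genes that RefSeq types as long noncoding, 158 were tested, 3 were higher (1.9%) and 22 lower (13.9%). Among 12501 protein-coding genes, 1024 were higher (8.19%) and 666 lower (5.33%), with a median of 0.02.

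Outside the lists without a tail, 13077 genes were tested, of which 1042 were higher and 682 lower, with a median of 0.01. Of 5 genes of the PABP family tested, 3 were higher and 1 lower, against 7.87% and 6.14% of all genes. PABPC1 stood at 224 and 184 CPM in total RNA and at 1092 and 1207 in PABP-bound RNA. That was 5.64-fold, or a log2 ratio of 2.50 ± 0.30 (adjusted p = 0.0143), with 2.43 in RIPSeq control 1 and 2.57 in RIPSeq control 2. PABPC4, the inducible cytoplasmic form, stood at 99.4 and 89.8, then 254 and 311, a log2 ratio of 1.58 ± 0.32 (adjusted p = 0.0335). PABPN1, the nuclear form that controls tail length during polyadenylation, stood at 53.0 and 47.7, then 193 and 134, a log2 ratio of 1.70 ± 0.35 (adjusted p = 0.0338). In each of these the RIPSeq controls both lay above both RNASeq controls.

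PABPC4L, a PABPC4-like gene, went the other way, at 9.61 and 9.48 CPM in total RNA and 1.27 and 3.19 in PABP-bound RNA, a log2 ratio of -2.08 ± 0.47 (adjusted p = 0.0392). PABPC1L was at 0.59 and not called (adjusted p = 0.465). With 5 of 10 PABP genes tested, the family median was 1.58 and its share of reads was 0.04% and 0.0335% in total RNA against 0.158% and 0.156% in PABP-bound RNA. The PABP calls rested on both RNASeq controls: without RNASeq control 1 only PABPC1 stayed called, and without RNASeq control 2 none did, with adjusted p-values of 0.0876 for PABPC1, 0.578 for PABPC4, 0.576 for PABPN1 and 0.0556 for PABPC4L. Without RIPSeq control 2, 5 of 6 tested were higher and 1 lower. PABPC1 has processed copies elsewhere in the genome, and the sources used here do not say how reads that match several places were handled.

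**Figure D3:**
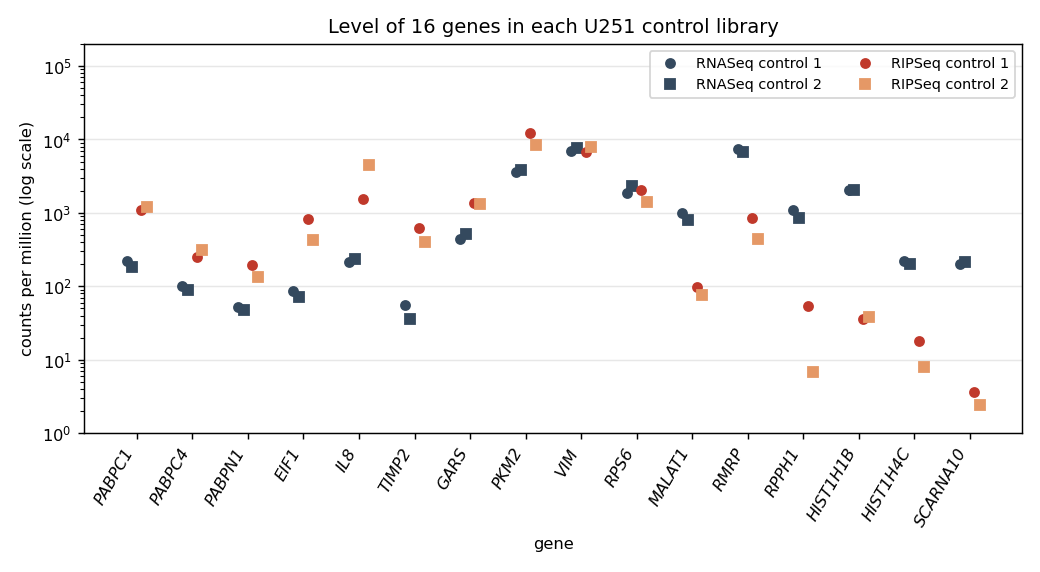
Level in CPM (y axis, log scale) of 16 genes (x axis) in each of the 4 libraries, with dark symbols for the RNASeq controls and red and orange for the RIPSeq controls. PABPC1 rises from 224 and 184 to 1092 and 1207, VIM lies together in all 4 libraries, and HIST1H1B falls from 2061 and 2035 to 35.9 and 38.7.

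Messages for the translation machinery sat near the middle of the distribution. Of 83 cytosolic ribosomal protein genes tested of 85, edgeR called 0 higher and 0 lower. At an unadjusted p under 0.05 there were 6 higher and 6 lower, against 2615 and 2267 of all 13242 genes. DESeq2 called 3 and 3. The median was -0.03, with 0.08 in RIPSeq control 1 and -0.22 in RIPSeq control 2, so the sign depended on the library. Without RIPSeq control 1 the median was -0.23, and without RIPSeq control 2 it was -0.03. RPS6, the small-subunit protein that S6 kinase phosphorylates, stood at 1839 and 2318 CPM in total RNA and at 2021 and 1399 in PABP-bound RNA. Its levels overlapped, with a log2 ratio of -0.28 ± 0.30 (adjusted p = 0.515), though it passed without RIPSeq control 1 (0.0149). The highest and lowest of the list were RPL28 at 2.08 ± 0.72 and RPL7 at -1.49 ± 0.38 (adjusted p = 0.0924 and 0.0502). Many ribosomal protein genes have processed pseudogenes, so their counts are uncertain.

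The other TOP mRNAs, 24 genes, were at a median of -0.02, with 1 called higher, PABPC1. Their median was -0.08 in RIPSeq control 1 and 0.06 in RIPSeq control 2. They had 6 higher and 5 lower without RIPSeq control 1, and 7 and 10 without RIPSeq control 2. EEF2, which moves the ribosome along the message, stood at 1790 and 1579 CPM in total RNA and at 3085 and 2241 in PABP-bound RNA. Both RIPSeq controls lay above both RNASeq controls, but the log2 ratio of 0.66 ± 0.27 did not pass (adjusted p = 0.134), and it passed without RIPSeq control 1 (0.0487) or without RIPSeq control 2 (0.00274). EEF1A1, which brings tRNAs to the ribosome, stood at 267 and 321, then 115 and 276, a log2 ratio of -0.59 ± 0.46 (adjusted p = 0.383), and passed without RIPSeq control 2 (1.21e-05). TPT1, a growth-linked TOP mRNA, stood at 519 and 685, then 733 and 711, a log2 ratio of 0.26 ± 0.29 (adjusted p = 0.542). In total RNA of U343 control cells, prepared with another cDNA kit, EEF1A1 stood at 3701 and 3834 CPM. The U251 controls were at 272 and 333 when scaled together with them. The cause of this gap was not tested, and the level of EEF1A1 given here is uncertain.

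A TOP start was also looked for in the RefSeq start-site windows of all genes, as a C at the first base within an unbroken pyrimidine run of at least 5. It was present in 4.07% of 35116 windows. By gene, counted where any window had it, it was present in 7.3% of tested protein-coding genes with a window. The same count gave 47 of 67 ribosomal protein genes with a window and 15 of 17 other TOP genes. The 755 tested protein-coding genes with such a start had a median log2 ratio of 0.08, with 63 higher (8.34%) and 28 lower (3.71%). The 9589 without it had a median of -0.01, with 754 higher (7.86%) and 524 lower (5.46%). The medians in RIPSeq control 1 were 0.07 with and -0.04 without the start, and in RIPSeq control 2 they were 0.05 and 0.02. A match to these letters is a description of the annotated start and not a measured one.

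Single translation genes did differ. Of 36 initiation and release factors, 2 (5.56%) were higher, EIF1 and EIF4EBP1, and 1 (2.78%) was lower, EIF3A, with a median of -0.15. Over all genes 7.87% were higher and 6.14% lower. EIF1, which guards start codon choice, stood at 85.7 and 71.2 CPM in total RNA and at 832 and 428 in PABP-bound RNA, a log2 ratio of 3.01 ± 0.43 (adjusted p = 0.0205). EIF3A, the largest subunit of eIF3, stood at 360 and 390, then 113 and 122, a log2 ratio of -1.67 ± 0.31 (adjusted p = 0.0282). Among 33 aminoacyl-tRNA synthetases GARS alone was called, at 441 and 521 CPM in total RNA against 1370 and 1302, a log2 ratio of 1.48 ± 0.28 (adjusted p = 0.0292). Without RNASeq control 2 the adjusted p was 0.0742 for EIF1, 0.37 for EIF3A and 0.331 for GARS, and without RNASeq control 1 it was 0.0426, 0.293 and 0.44. The factors had 7 higher and 11 lower genes and the synthetases 8 and 4 without RIPSeq control 1, and without RIPSeq control 2 they had 9 and 15, and 7 and 16.

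Calls among partners of PABP and the enzymes that shorten tails were near or under the share over all genes. Of 31 partner genes 2 were higher (6.45%, against 7.87% of all genes), ATXN2L and ZFP36L1. TNRC6B was lower (3.23%, against 6.14%), and the list median was -0.29. ATXN2L, a stress granule protein related to ataxin-2, stood at 55.3 and 26.0 CPM in total RNA and at 413 and 143 in PABP-bound RNA, a log2 ratio of 2.77 ± 0.64 (adjusted p = 0.0403). Of 22 deadenylase and decapping genes DCP2, the decapping enzyme, was the sole call (4.55% lower, against 6.14%). It stood at 138 and 140 against 14.4 and 41.4, a log2 ratio of -2.31 ± 0.54 (adjusted p = 0.0408). Leaving out either RNASeq control removed every call in both lists, with adjusted p-values of 0.0693 and 0.319 for ATXN2L and 0.141 and 0.159 for DCP2. The partners had 7 higher and 7 lower and the deadenylation and decapping genes 6 and 8 without RIPSeq control 1, and without RIPSeq control 2 they had 7 and 18, and 3 and 17.

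The extracellular matrix list held the largest share of genes above total RNA among the mRNA lists with more than 5 members tested. Of 71 tested of 87, 29 were called higher and 2 lower, against 7.87% and 6.14% of all genes. The median log2 ratio was 1.22, with 1.36 in RIPSeq control 1 and 1.05 in RIPSeq control 2. RIPSeq control 1 alone placed 40 at least 2-fold higher and 4 lower, and RIPSeq control 2 alone placed 33 higher and 6 lower. Of the 66 that passed the filter in both kinds of RNA, 28 were higher and 2 lower. Together these genes took 1.36% and 1.19% of reads in total RNA and 3.02% and 2.47% in PABP-bound RNA. The calls rested on both RNASeq controls, with 5 higher and 1 lower without RNASeq control 1, and 0 higher and 1 lower without RNASeq control 2. Without RIPSeq control 2 there were 57 higher and 7 lower, and without RIPSeq control 1 there were 46 and 5.

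TIMP2, an inhibitor of matrix metalloproteinases, was the highest of the list. It lies on chromosome 17 from 74360654 to 74433067 in hg18 and stood at 56.0 and 35.6 CPM in total RNA and at 627 and 404 in PABP-bound RNA. Its log2 ratio was 3.49 ± 0.43 (adjusted p = 0.0153), with 3.81 in RIPSeq control 1 and 3.18 in RIPSeq control 2, and the adjusted p was 0.0515 without RNASeq control 2. TGFBI, a secreted adhesion protein, stood at 1594 and 1334, then 5310 and 3516, a log2 ratio of 1.59 ± 0.30 (adjusted p = 0.0284; 0.0612 and 0.154 without RNASeq control 1 and 2). For both genes the RIPSeq controls lay above both RNASeq controls.

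Of 32 collagens, 9 (28.1%, against 7.87% of all genes) were called higher, and the collagen median was 1.19. Among the 9 were the basement membrane collagens COL4A1, COL4A2 and COL18A1, the fibrillar COL5A1 and the collagen VI chains COL6A1, COL6A2 and COL6A3. Among 11 laminins 3 (27.3%, against 7.87% of all genes) were higher, LAMA5 and LAMB3 among them, with a median of 0.47. The laminin median was 0.66 in RIPSeq control 1 and -0.05 in RIPSeq control 2, so its sign depended on the library. FN1, SPARC, TNC, NID1, MMP2, MMP14, TIMP1 and TIMP3, which encode matrix proteins, matrix proteases and their inhibitors, were called higher as well. POSTN, a secreted matrix protein, was the lowest, at 46.8 and 41.2 CPM in total RNA and 2.41 and 4.05 in PABP-bound RNA, a log2 ratio of -3.76 ± 0.40 (adjusted p = 0.0106), and COL10A1 was the other gene called lower. The matrix list, like the rest, was drawn up with earlier results of these data known, and its counts are a description.

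Other mRNAs of the secretory pathway and cell surface leaned upward in smaller numbers. Among 32 ER chaperones and folding enzymes 6 (18.8%, against 7.87% of all genes) were higher and 0 lower, with a median of 0.23. The 6 were FKBP10, HYOU1, KDELR1, PDIA3, SEC61A1 and SPCS2. KDELR1, which returns escaped chaperones to the ER, stood at 99.0 and 107 CPM in total RNA and at 367 and 372 in PABP-bound RNA, a log2 ratio of 1.84 ± 0.31 (adjusted p = 0.0242). Of 16 integrins, the receptors for matrix, 4 (25%, against 7.87% of all genes) were higher (ITGA3, ITGA5, ITGA7 and ITGB5). The integrin median was 0.27. ITGA3 stood at 548 and 483, then 2863 and 1761, a log2 ratio of 2.17 ± 0.33 (adjusted p = 0.0218). Leaving out either RNASeq control left 0 ER genes called, and left ITGA3 alone of the integrins without RNASeq control 1 and 0 without RNASeq control 2. There were 18 higher and 3 lower ER genes and 9 and 1 integrins without RIPSeq control 1, and without RIPSeq control 2 there were 15 and 10, and 9 and 6. The adjusted p of KDELR1 was 0.438 without RNASeq control 1 and 0.411 without RNASeq control 2, and that of ITGA3 was 0.0657 without RNASeq control 2.

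Cholesterol genes went both ways. Of 23 tested, 3 (13%, against 7.87% of all genes) were higher, DHCR7 and SREBF2 among them. HMGCS1 was lower (4.35%, against 6.14%). The list median was 0.26, at 0.54 in RIPSeq control 1 and -0.06 in RIPSeq control 2. SREBF2, a transcription factor that drives the pathway, stood at 42.7 and 40.6 CPM in total RNA and at 197 and 114 in PABP-bound RNA, a log2 ratio of 1.90 ± 0.39 (adjusted p = 0.0335). HMGCS1, an early enzyme, stood at 49.5 and 53.0, then 17.9 and 22.7, a log2 ratio of -1.34 ± 0.32 (adjusted p = 0.0446). None of the 4 calls was kept without RNASeq control 1 or without RNASeq control 2, where the adjusted p was 0.461 and 0.507 for SREBF2 and 0.464 and 0.531 for HMGCS1. The list had 6 higher and 4 lower without RIPSeq control 1, and 12 and 10 without RIPSeq control 2.

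Abundant metabolic and cytoskeletal mRNAs were in part higher. Of 17 glycolysis enzymes 5 (29.4%, against 7.87% of all genes) were called higher (ALDOA, ENO2, GPI, HK2 and PKM2), with a median of 0.39. PKM2, the muscle-type pyruvate kinase, stood at 3601 and 3855 CPM in total RNA and at 12423 and 8323 in PABP-bound RNA, a log2 ratio of 1.48 ± 0.26 (adjusted p = 0.0263). GAPDH was at 0.66 and not called (adjusted p = 0.083). PKM2 was the sole glycolysis gene that stayed called without RNASeq control 1, and likewise without RNASeq control 2. Leaving out RIPSeq control 1, and likewise RIPSeq control 2, gave 9 higher and 2 lower. Of 25 actins, tubulins and their partners 3 (12%, against 7.87% of all genes) were higher, with a median of 0.66. None of the 3 was 2-fold in all 4 pairs. ACTB stood at 5520 and 7037, then 16068 and 12874, a log2 ratio of 1.20 ± 0.24 (adjusted p = 0.0312), which was 0.146 without RNASeq control 1. No gene of that list was called without RNASeq control 1 and ACTB alone without RNASeq control 2, against 14 higher and 4 lower without RIPSeq control 1 and 13 and 2 without RIPSeq control 2. The cytoskeletal list took 1.97% and 2.09% of reads in total RNA and 4.42% and 3.17% in PABP-bound RNA. VIM, the intermediate filament vimentin, stood at 6909 and 7764, then 6684 and 7789, a log2 ratio of -0.02 ± 0.21 (adjusted p = 0.954).

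Mitochondrial messages stayed close to total RNA. Of 70 oxidative phosphorylation subunits 4 (5.71%, against 7.87% of all genes) were higher and 0 lower, with a median of 0.25. The 4 higher were ATP5D, COX6A1, NDUFA3 and NDUFA7. ATP5D, a subunit of ATP synthase, was the highest at 2.71 (adjusted p = 0.028). Of 74 mitochondrial ribosomal proteins 1 was higher (1.35%, against 7.87%), MRPL43, with a median of 0.10. Leaving out either RNASeq control removed all of these calls, with an adjusted p of 0.253 and 0.215 for ATP5D. Among 34 proteasome subunits edgeR called 0, with 2 higher and 2 lower at an unadjusted p under 0.05 and by DESeq2, and the median was -0.22. Without RIPSeq control 1 and 2 the median was 0.12 and 0.36 for oxidative phosphorylation and 0.01 and 0.08 for the mitochondrial ribosome. For the proteasome it was -0.24 and -0.27. In the chaperone list that follows, 1.67% of genes were called higher and 1.67% lower. In the splicing list the shares were 6.41% and 1.28%, against 7.87% and 6.14% of all genes. Of 60 chaperones of the HSP, DNAJ, CCT and BAG families DNAJC4 was higher and HSPD1, a mitochondrial chaperonin, lower, with a median of -0.37, and 0 were called without RNASeq control 1 or without RNASeq control 2. Of 78 spliceosome, hnRNP and SR protein genes 5 were higher and 1 lower, with a median of 0.06, and 0 were called without RNASeq control 1 or without RNASeq control 2. The chaperones had 13 higher and 21 lower and the splicing genes 21 and 23 without RIPSeq control 1, and without RIPSeq control 2 they had 15 and 32, and 32 and 31.

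Immediate early and AU-rich mRNAs, which are short-lived and lose their tails fast, were more often above total RNA than below it. Of 41 tested, 8 (19.5%, against 7.87% of all genes) were higher (ATF3, FOSL1, IER2, IL6, IL8, KLF4, TNFAIP3 and VEGFA). DUSP1 was lower (2.44%, against 6.14%). The median was 0.61, with 0.81 in RIPSeq control 1 and 0.34 in RIPSeq control 2. IL8, a chemokine, stood at 215 and 239 CPM in total RNA and at 1565 and 4465 in PABP-bound RNA, a log2 ratio of 3.73 ± 0.53 (adjusted p = 0.0206), with 2.79 in RIPSeq control 1 and 4.30 in RIPSeq control 2. DUSP1, a phosphatase of MAP kinases, stood at 81.5 and 80.5, then 28.1 and 30.6, a log2 ratio of -1.46 ± 0.31 (adjusted p = 0.0353; 0.448 and 0.469 without RNASeq control 1 and 2). IL8 was the sole gene of the list called without RNASeq control 1 (3.22e-06) and without RNASeq control 2 (8.57e-07). Leaving out RIPSeq control 1 gave 17 higher and 7 lower, and leaving out RIPSeq control 2 gave 23 and 9. MYC and JUN, transcription factors of the same class, were at 0.02 and 0.42 and were not called (adjusted p = 0.962 and 0.526), though JUN passed without RIPSeq control 2 (0.00129). FOS had 0.381 to 1.21 CPM in the 4 libraries and a log2 ratio of -0.83 (adjusted p = 0.331), which passed without RIPSeq control 1 (0.0169).

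Among called genes whose higher group averaged 50 reads or more, and whose 4 pairs of libraries all moved one way, the 10 with the largest ratios above total RNA were CSF2, APLP1, DHRS9, HAPLN3, BCAM, CTXN1, SPINT1, CST3, GRN and CD82. CSF2, APLP1 and DHRS9 were under the filter limit of 0.493 CPM in both RNASeq controls, and HAPLN3 and CTXN1 in 1 of them. They passed the filter through PABP-bound RNA only, so their place in the ranking describes the filter as well. CSF2, the cytokine GM-CSF, had 1 and 3 reads in total RNA and 721 and 346 in PABP-bound RNA. Summed over libraries this was a ratio of 184, with a counting interval of 71.8 to 678 at 95% that covers counting error only. CST3, the protease inhibitor cystatin C, stood at 11.8 and 8.12 CPM in total RNA and at 230 and 102 in PABP-bound RNA, a log2 ratio of 4.06 ± 0.53 (adjusted p = 0.0163). GRN, the growth factor progranulin, stood at 15.0 and 9.53, then 301 and 105, a log2 ratio of 4.05 ± 0.62 (adjusted p = 0.0218). SPINT1, a membrane protease inhibitor, stood at 4.20 and 4.47, then 95.5 and 59.3, a log2 ratio of 4.16 ± 0.41 (adjusted p = 0.00859). The selection required every RIPSeq value of these genes to be above every RNASeq value, so that order is no result. RIPSeq control 1 was the higher of the pair in each. Without RNASeq control 2 the adjusted p was 0.0524 for CST3 and 0.0516 for GRN. The 10 lowest by the same limits were 4 histones (HIST1H4I, HIST1H3F, HIST1H3G and HIST1H2AG), 5 snoRNAs (SNORA22, SNORA48, SNORA49, SNORA52 and SNORD15B) and RNU4ATAC. Here too the filter enters, since SNORA22, for example, was under its limit in both RIPSeq controls and passed through total RNA only.

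Among mRNAs with a tail, the numbered zinc finger genes, mostly transcription factors of the Krüppel type, lay below total RNA. Of 465 tested of 513, 66 were called lower and 3 higher, against 6.14% and 7.87% of all genes. The median log2 ratio was -0.86, with -1.22 in RIPSeq control 1 and -0.65 in RIPSeq control 2, and 376 of the 465 had a ratio under 0. RIPSeq control 1 alone placed 253 at least 2-fold lower and 29 higher, and RIPSeq control 2 alone placed 116 lower and 3 higher. Their share of reads was 1.37% and 1.31% in total RNA and 0.662% and 0.817% in PABP-bound RNA. The 222 on chromosome 19, where these genes sit in clusters, had a median of -1.06, and the 243 on other chromosomes had -0.67, with 33 called lower in each. ZNF91, a repressor of retrotransposons, stood at 46.0 and 40.9 CPM in total RNA and at 1.62 and 5.58 in PABP-bound RNA, a log2 ratio of -3.58 ± 0.61 (adjusted p = 0.0242). The highest was ZNF580 at 2.79 (adjusted p = 0.0274; 0.138 and 0.234 without RNASeq control 1 and 2). Without RNASeq control 1, 10 were lower and 1 higher, without RNASeq control 2, 11 and 0, without RIPSeq control 1, 260 and 23, and without RIPSeq control 2, 325 and 61. Zinc finger genes resemble one another, so their counts share the uncertainty of related genes.

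Mitosis and kinetochore mRNAs also lay below total RNA. Of 42 tested, 6 (14.3%, against 6.14% of all genes) were lower (ASPM, CENPE, CENPF, CKAP5, KIF15 and TOP2A). There were 0 higher, against 7.87% of all genes, and the list median was -0.49. The median was -1.14 in RIPSeq control 1 and -0.23 in RIPSeq control 2. ASPM, a spindle pole protein, stood at 571 and 531 CPM in total RNA and at 36.2 and 124 in PABP-bound RNA, a log2 ratio of -2.78 ± 0.60 (adjusted p = 0.0356). CENPF, a kinetochore protein, stood at 958 and 1002, then 216 and 312, a log2 ratio of -1.89 ± 0.32 (adjusted p = 0.0242; 0.108 and 0.144 without RNASeq control 1 and 2). PLK1, a mitotic kinase, pointed up at 1.17 ± 0.32 and just missed the threshold (adjusted p = 0.0551), and it passed without RIPSeq control 1 (5.35e-07) or 2 (1.01e-05). ASPM was the sole gene of the list called without RNASeq control 1, and likewise without RNASeq control 2, and without RIPSeq control 1 and 2 there were 16 and 31 lower beside 6 higher in each. Of 39 DNA replication genes edgeR called 0, with 5 higher and 5 lower at an unadjusted p under 0.05 and 3 and 4 by DESeq2. Of these, 6 were higher and 14 lower without RIPSeq control 1, and 11 and 20 without RIPSeq control 2.

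**Figure D4:**
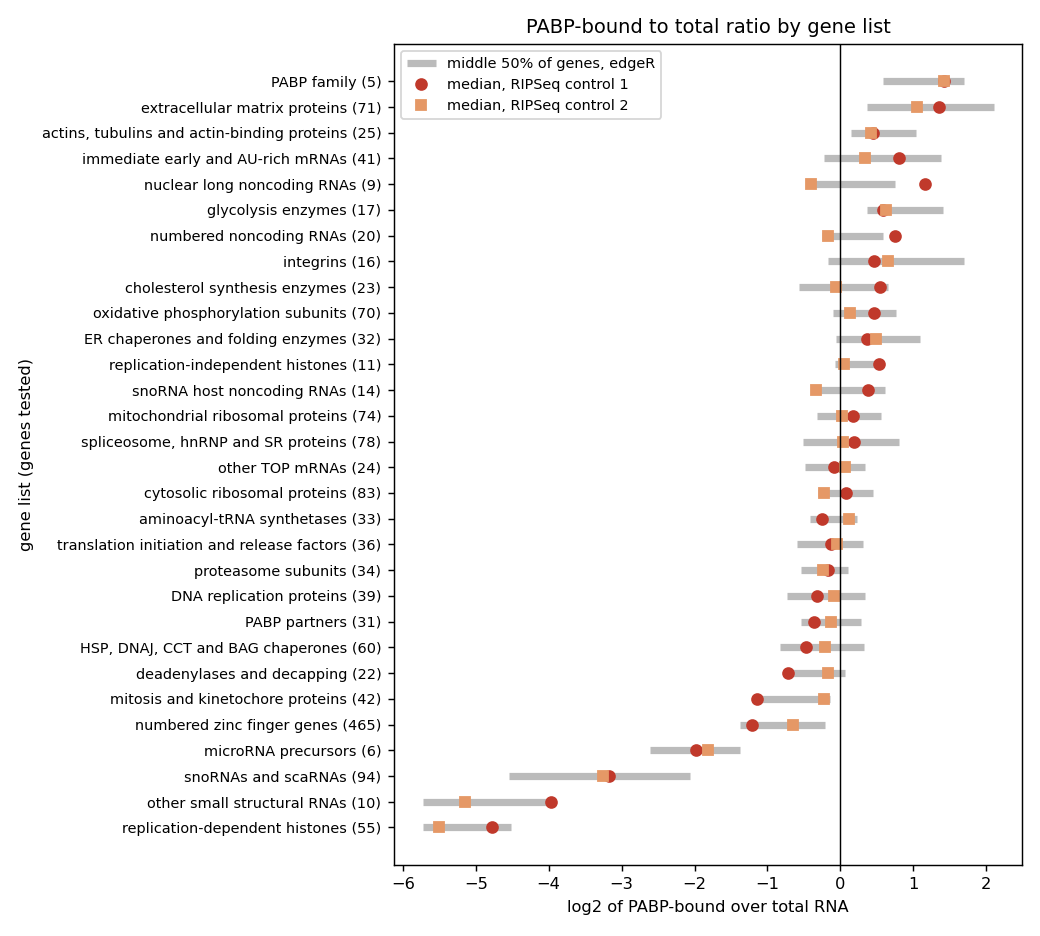
Log2 of PABP-bound over total RNA (x axis) for each gene list (y axis, with the number of genes tested), where the grey bar is the interquartile range of edgeR ratios, the circle the median in RIPSeq control 1 and the square the median in RIPSeq control 2. Replication-dependent histones, other small structural RNAs and snoRNAs lie far left at edgeR medians of -5.12, -4.75 and -3.33, and extracellular matrix proteins lie to the right at 1.22.

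The ratio went with the length of the gene on the genome. Protein-coding genes were put in 5 equal groups by their span in hg18, introns included. The shortest, from 357 to 9121 bases, had a median log2 ratio of 0.46, with 12.2% higher and 3.88% lower. The longest, above 93000 bases, had -0.45, with 3.16% higher and 11.7% lower. In RIPSeq control 1 the medians fell from 0.70 to -0.72 across the groups, and in RIPSeq control 2 they went from 0.19 to -0.29. The same groups differed between the RNASeq controls by 0.06 at the short end and -0.04 at the long end.

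GC content of the window around the start site moved the other way. The group with the lowest GC, 27% to 56.67%, had a median of -0.36, and the group with the highest, 72.44% to 94%, had 0.33. In RIPSeq control 1 the medians went from -0.59 to 0.42 and in RIPSeq control 2 from -0.25 to 0.25. A window was found for 82.7% of the protein-coding genes tested. Spearman's rho across genes was -0.333 for span in RIPSeq control 1 (12501 genes) and -0.206 in RIPSeq control 2, and 0.209 and 0.204 for GC (10344 genes). Genes are not independent replicates, and the points of a plot share their library and depth. The extracellular matrix genes tested had a median span of 79600 bases and the zinc finger genes 19700, against 29700 over protein-coding genes. The median GC of the window was 65.7% in the matrix genes and 61.3% in both the zinc finger and the mitosis genes, against 64.7%. The part of span and GC in the ratios of these lists was not tested.

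**Figure D5:**
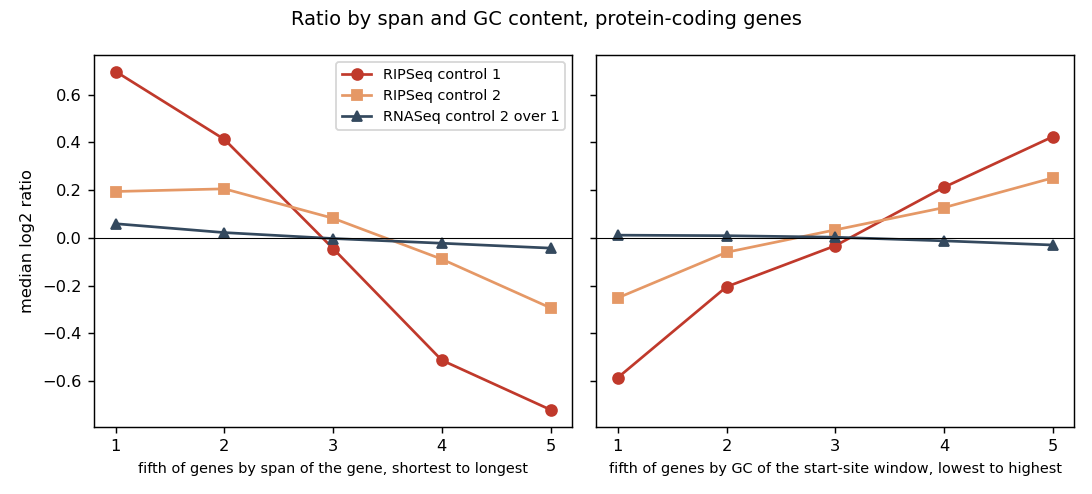
Median log2 ratio (y axis) of protein-coding genes in 5 groups by gene span (left) and by GC content of the start-site window (right), for each RIPSeq control over total RNA and for RNASeq control 2 over 1. RIPSeq control 1 falls from 0.70 to -0.72 with span, RIPSeq control 2 from 0.19 to -0.29, and the RNASeq line stays between 0.06 and -0.04.

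Markers were read for the cells themselves. VIM and CD44, a surface glycoprotein of glioma cells, were abundant in all 4 libraries, CD44 at 3527 and 2905 CPM in total RNA and at 4016 and 6883 in PABP-bound RNA. GFAP, the astrocyte filament protein, was at 28.1 and 29.3, then 12.6 and 6.72, and it was the only one of 8 glioma and astrocyte markers tested that was called (log2 ratio -1.57, adjusted p = 0.0464; 0.27 and 0.322 without RNASeq control 1 and 2). Markers of blood cells, 8 genes, took 0.000823% and 0.000966% of reads in total RNA and 0.00212% and 0.00141% in PABP-bound RNA. Olfactory receptors, 367 genes that no glioma cell is known to use, took 0.000361% and 0.000488% in total RNA and 0.00512% in RIPSeq control 1 against 0.00111% in RIPSeq control 2. None of the olfactory receptors had enough reads to test.

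The same comparison was available in U251 cells given the miR-137 mimic and in U343 cells, another glioma line, given the control mimic, each with 2 RIPSeq and 2 RNASeq libraries of its own. The study's methods give another cDNA kit (TotalScript) for the U343 libraries, so the cell line and the library preparation cannot be told apart in what follows. Over all genes tested, 32.4% were called higher and 33.5% lower with miR-137, and 24.4% and 24.2% in U343. Among the 10 highest genes above, 10 were called higher with miR-137, with a median log2 ratio of 2.22, and the 10 lowest were all called lower, at -4.62. In U343, 8 of the 10 highest could be tested, 5 were called higher and 1 lower with a median of 0.57, and of 9 lowest 8 were called lower at -3.40. The replication-dependent histones had a median of -3.22 with miR-137 and -3.95 in U343, and all 55 and 57 tested were lower there. PABPC1 was at 1.83 and 2.25, PABPC4 at 1.99 and 1.56 and MALAT1 at -2.87 and -2.74 in the same order. PABPN1 was at 1.06 and 0.87. The extracellular matrix list had a median of 0.34 with miR-137 (33 higher and 15 lower of 74) and 0.17 in U343 (21 and 10 of 67). The immediate early list was at 0.15 with miR-137 (16 higher and 13 lower of 41). In U343 it lay below total RNA, at -0.47 (2 higher and 18 lower of 38). Glycolysis enzymes were at 0.63 and -0.02, and the numbered zinc finger genes at -0.63 and -0.29.

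A test of the difference of ratios was made for each gene. Against U343, 458 of 15649 genes had a higher ratio in the U251 control (2.93%) and 137 a lower one (0.875%). In the extracellular matrix list 14 were higher and 1 lower of 78, with a median difference of 1.13 against 0.15 over all genes, and in the immediate early list 6 were higher and 0 lower of 41, also at 1.13. IL8 was 5.64 higher on the log2 scale (adjusted p = 0.023), since in U343 its ratio was -1.86 (adjusted p = 0.0055) at 0.913 CPM or less. Among the histones 7 of 59 were lower, with a median difference of -0.92. HIST1H1B differed by -2.62 (adjusted p = 0.0174), with a ratio of -3.09 in U343.

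Against the miR-137 cells, 4 of 14210 genes had a higher ratio in the control (0.0281%) and 15 a lower one (0.106%), and the median difference over all genes was 0.04. The histones accounted for 5 of the 15, of 56 tested, with a median difference of -1.93. The matrix list had 1 higher of 77, with a median difference of 1.02. Of 83 ribosomal protein genes edgeR called 0, with a median difference of -0.49. At an unadjusted p under 0.05, 0 of the 83 were higher and 26 lower, against 1760 and 928 of all 14210 genes. Ribosomal protein messages had a median ratio of 0.49 with miR-137 against -0.03 in the control. The wide spread between the RIPSeq controls enters every one of these tests. Without RIPSeq control 1 the counts were 2368 and 2187 against U343 and 1224 and 1664 against miR-137, and without RIPSeq control 2 they were 4744 and 5305, and 3922 and 4947.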

How the data were processed

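Gene-level read counts of 4 U251 control libraries were used, 2 RIPSeq and 2 RNASeq, with 4 U251 miR137 and 4 U343 control libraries for the tests of a difference. The deposited counts are whole reads per gene: the authors aligned 36-base GAIIx reads with RMAP to hg18 and counted them on 1 merged transcript for each RefSeq gene. The version of RMAP, the handling of reads with several matches and the use of strand are not given in the sources used here. The total per library was 16886287 to 30731476 reads, and intervals and limits cover counting error only.

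Genes with at least 0.493 CPM in 2 libraries were tested with the quasi-likelihood test of edgeR 4.0.16 in R 4.3.3, with trimmed-mean (TMM) factors of 0.94 to 1.03 and Benjamini-Hochberg adjustment over all genes tested. Log2 ratios of a single RIPSeq control were taken over the mean of both RNASeq controls, with a prior count of 0.5. A second rule asked for at least 2-fold in all 4 pairs of libraries. Scripts were tested on simulated data. Alternatives were DESeq2 1.42.0, other scaling factors, other filters, a replicate block, a joint fit of all 8 U251 libraries and each library left out. Start-site windows and gene types came from RefSeq (GRCh38.p14), where 12942 of 13242 tested genes matched. Transcript and UTR lengths were planned and not used here, and gene span and window GC were taken in their place after the reference had been seen.

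The members and gene lists were chosen with earlier results of these data known. Named genes are a set list, the 10 largest changes in each direction with at least 50 reads on average, the 2 most abundant and the 2 extreme members of each list, the 3 largest differences each way between conditions and the 5 genes most different between the RIPSeq controls with at least 500 reads. The text gives a selection of these, and called list members outside them were named after their values were seen. A few genes of these lists are counted but not reported singly here.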

Additional observations from a re-analysis of the deposited data

Results flagged for a closer look

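The results here differed between the U251 control and another condition by a test of the difference of PABP-bound to total ratios (edgeR, adjusted p under 0.05). Against U343 control cells, 458 genes had a higher ratio in the U251 control and 137 a lower one. Against U251 cells given miR-137, the counts were 4 and 15. Levels are in CPM as scaled in the joint fit of both conditions, RNASeq first. Genes are named from those past the threshold whose highest group averaged 50 reads or more.

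The U343 libraries were made with another cDNA kit, so the cell line and the library preparation cannot be told apart. Against U343, the 3 genes furthest down were SNORA22 (a log2 difference of -5.11, adjusted p = 0.0197), POSTN (-4.59, 0.0441) and SCRG1, a gene of cartilage and glia (-3.97, 0.0404). SNORA22 had 19 and 14 reads in U343 total RNA, and POSTN had 1 and 5. The 3 furthest up were NRSN1 (14.14, 0.0174), MUC17 (12.30, 0.0174) and NEUROD2 (10.82, 0.0236). NRSN1 and NEUROD2 are neuronal genes and MUC17 a membrane mucin. NRSN1 and NEUROD2 had no read in either U251 RNASeq control, so the size of these differences depends on the prior count and is no bound. In U343, NRSN1 stood at 93.6 and 140 in total RNA and at 0.358 and 0.273 in PABP-bound RNA, and MUC17 at 84.2 and 122, then 1.16 and 0.968.

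Against miR-137, the 3 genes furthest down were HIST1H2BK, an H2B histone (-3.65, 0.0179), SFRP4, a secreted Wnt inhibitor (-3.56, 0.0179), and TRPC4, a cation channel (-3.46, 0.0402). HIST1H2BK stood at 180 and 190, then 6.19 and 8.05 in the control, and at 79.7 and 82.9, then 41.2 and 37.7 with miR-137. SFRP4 fell in total RNA from 25.2 and 23.5 to 0.869 and 0.768 with miR-137, while PABP-bound RNA went from 17.8 and 19.1 to 7.58 and 7.18. The 3 furthest up were TNFRSF11B (3.81, 0.0232), FST (3.06, 0.0209) and TRAF1 (2.84, 0.0402), which encode a decoy receptor, an activin inhibitor and a signalling adaptor. FST stood at 4.67 and 4.30 in total RNA and 47.3 and 39.8 in PABP-bound RNA of the control, and at 160 and 156, then 186 and 181 with miR-137. TRAF1 stood at 4.86 and 4.42, then 38.6 and 25.0 in the control, and at 22.3 and 20.3, then 19.8 and 21.0 with miR-137.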

How the results depend on the processing

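The number of calls depended on the processing far more than their direction did. In place of 1042 higher and 813 lower genes, DESeq2 gave 1945 and 1670, no filter beyond 1 read gave 16 and 84, and a joint fit of 8 U251 libraries gave 3165 and 2590. DESeq2 and the joint fit kept all 1042 and 813. The range over libraries left out was 41 to 5709 higher and 176 to 5459 lower. For 2-fold in all 4 pairs, a 1.5-fold limit gave 2237 and 2242, a 4-fold limit 197 and 256, no filter 3257 higher, and libraries left out 1386 to 3791 higher and 1438 to 3685 lower. Of 68 called genes followed singly, 68 stayed called with DESeq2, 67 with upper-quartile factors, 63 with library totals, 55 of 60 with at least 50 reads on average, 18 without the filter, 40 of 67 and 35 of 68 without RNASeq control 1 and 2, and 68 without RIPSeq control 1 and likewise without RIPSeq control 2. Their sign was the same under every one of these alternatives. The RNASeq controls lie closer to each other than the RIPSeq controls do, and a fit without a RIPSeq control takes its spread from the RNASeq pair and a fit without an RNASeq control from the RIPSeq pair.

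No label says that RIPSeq and RNASeq libraries of the same number share a culture, and their deviations correlated at 0.163 over 2 pairs, so the numbers were taken as names. A replicate block gave 1935 higher and 2101 lower genes, and for the differences 132 and 25 against U343 and 0 and 0 against miR-137.

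For the differences, DESeq2 gave 1497 higher and 813 lower against U343, and 395 and 309 against miR-137. Leaving out a RIPSeq control gave 2368 to 4744 higher and 2187 to 5305 lower against U343, and 1224 to 3922 and 1664 to 4947 against miR-137.

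List medians moved by more than the spread between libraries in these cases. Without the filter they were -2.64 for snoRNAs and scaRNAs, -1.15 for microRNA precursors, -0.21 for other TOP mRNAs, -0.33 for initiation and release factors, 1.46 for the PABP family, -0.10 for mitochondrial ribosomal proteins, -0.37 for proteasome subunits, 0.50 for actins and tubulins, 0.060 for ER chaperones and 0.68 for integrins. With at least 50 reads on average snoRNAs and scaRNAs were at -4.57. With upper-quartile factors the actins were at 0.77, ER chaperones at 0.34 and spliceosome genes at 0.18, and the median over all genes was 0.08. With libraries left out, medians ranged from 0.37 to 0.63 for actins and tubulins, -0.34 to 0.12 for aminoacyl-tRNA synthetases, 0.045 to 0.50 for ER chaperones, 0.42 to 0.63 for glycolysis, 0.28 to 1.07 for integrins, -0.14 to 0.10 for mitochondrial ribosomal proteins, -1.23 to -0.23 for mitosis, -0.39 to 0.43 for numbered noncoding RNAs, -1.29 to -0.66 for zinc finger genes, -0.24 to 0.066 for other TOP mRNAs, 1.42 to 1.599 for the PABP family, -0.39 to -0.24 for proteasome subunits, -3.43 to -3.04 for snoRNAs and scaRNAs, -0.083 to 0.10 for spliceosome genes and -0.29 to -0.039 for initiation and release factors.

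Among named genes that were not called, the sign turned for H2AFZ (-0.038 with library totals, -0.18 without the filter, -0.27 to 0.069 with libraries left out), VIM (0.063 with upper-quartile factors, 0.0031 with at least 50 reads, -0.22 to 0.093), MYC (-0.026 with totals, -0.16 without the filter, -0.20 to 0.026), NEAT1 (-0.51 to 1.49), TPT1 (-0.052 to 0.36) and JUN (-0.26 to 0.80). The cause of these changes was not tested.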
